A study of Mus musculus with 2 samples.

Results

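The genes described here are 8 mouse genes known for their transcripts in the oocyte, the early embryo or embryonic stem (ES) cells: Dppa1, Dppa3, Dppa4, Dppa5a, Tdh, L1td1, Fbxo15 and Khdc3. They were taken by name from the gene symbols of 2 single-cell RNA libraries, which list 22802 symbols between them. All 8 are among the 19307 symbols of the blastocyst library and 7 among the 21459 of the embryoid library, where Dppa1 has no row. The blastocyst library was made from whole B6C3F1 embryos of embryonic day 4.5, untreated as far as the labels say, with the number of pooled embryos not stated. The embryoid library was made from aggregates of 10000 ES cells, derived from Lifeact-RFPRuby mice, with 50000 to 80000 XTE cells, which the study obtained by reprogramming Gata6-H2B:Venus ES cells. These were held for 48 h in aggregation wells and 48 h in repellent plates. Before joining, the ES cells were kept with Lif, PD0325901 and CHIR99021, and the XTE cells with CHIR99021, BMP4, Fgf4, heparin and Activin. The labels give neither the strain background of the lines nor whether each is 1 clone. Each condition is 1 library, so there is no replicate check, no p-value is given, and a difference between the libraries cannot be told apart from differences of strain, culture, dissociation or library. The question addressed is which lineages of the blastocyst, and which groups of embryoid cells, hold these transcripts.

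Maternal transcripts stored in the oocyte carry the embryo through its first divisions, and some of their genes are transcribed again from the embryo's own genome. At the late blastocyst stage the embryo consists of trophectoderm, which founds the placenta, primitive endoderm, which founds the yolk sac, and epiblast, which founds the body and is the source of ES cells. Dppa3 (Stella) is a maternal effect protein that protects DNA methylation in the zygote, and Khdc3 (Filia) belongs to the subcortical maternal complex of oocytes and cleavage embryos. Dppa4 binds chromatin together with Dppa2, Dppa5a is an RNA-binding KH domain protein, L1td1 is an RNA-binding protein derived from a transposon, Tdh is the mitochondrial threonine dehydrogenase that ES cells rely on, and Fbxo15 is an F-box protein known as a target of Oct4 and Sox2. Dppa1 was named, with the other Dppa genes, for its association with pluripotent cells.

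In RefSeq's annotation of build GRCm38.p6 (mm10), Dppa1 spans chr11:46607010-46629274 and Tdh chr14:63492347-63509092, both on the minus strand, as is the short gene Dppa5a at chr9:78367052-78368199. On the plus strand lie Dppa3 at chr6:122626424-122630271, Dppa4 at chr16:48283735-48294292, L1td1 at chr4:98726754-98738486 and Khdc3 at chr9:73101381-73106631. These genes are all protein coding. The sequence just before the transcription start was at hand for 3 of the 8 genes in a RefSeq promoter table of the same build. The 3 sequences are shown because these genes had unlike ranges over the cell classes: Dppa1 had over 1000 CPM in blastocyst TE-like cells and at most 6 UMIs in any other class, Khdc3 was found in all blastocyst classes with 1 UMI in the embryoid, and L1td1 had UMIs in every class. Each line gives the 250 bases upstream of the start, 5′ to 3′ in the direction of transcription, with every CG and every GATAA match in capitals. Dppa1 lies at chr11:46629275-46629524 on the minus strand, Khdc3 at chr9:73102148-73102397 on the plus strand and L1td1 at chr4:98726504-98726753 on the plus strand. RefSeq places the first base of the Khdc3 gene at 73101381, so that the table's start for Khdc3 is a later one and its window lies within the annotated gene.
Dppa1: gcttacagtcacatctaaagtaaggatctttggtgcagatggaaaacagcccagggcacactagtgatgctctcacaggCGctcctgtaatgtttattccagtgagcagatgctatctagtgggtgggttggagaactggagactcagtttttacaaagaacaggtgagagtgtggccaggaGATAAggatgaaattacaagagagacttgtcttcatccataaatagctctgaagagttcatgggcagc
Khdc3: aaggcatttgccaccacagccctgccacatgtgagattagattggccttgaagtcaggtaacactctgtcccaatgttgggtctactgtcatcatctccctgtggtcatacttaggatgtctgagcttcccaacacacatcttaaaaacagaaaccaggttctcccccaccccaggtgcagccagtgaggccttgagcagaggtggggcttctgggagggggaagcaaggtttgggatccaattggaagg
L1td1: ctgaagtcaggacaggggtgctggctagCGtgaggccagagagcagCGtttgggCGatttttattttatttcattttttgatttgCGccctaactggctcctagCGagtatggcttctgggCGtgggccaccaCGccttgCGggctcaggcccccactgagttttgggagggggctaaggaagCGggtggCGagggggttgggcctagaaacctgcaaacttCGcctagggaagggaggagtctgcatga

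CG dinucleotides, the sites of DNA methylation in mammals, numbered 1 in the Dppa1 window, 0 in the Khdc3 window and 11 in the L1td1 window. Of 27025 promoter windows of the same length, 91.7% held at least 1 CG, with a median of 6. Windows with 1 or 0 CG made up 19.4% of them, those with 0 CG 8.26%, and those with 11 or fewer 66.2%. Both strands were also searched for GATAA, the core bound by GATA factors, for ATGCAAAT, the octamer bound by POU factors, and for GGAATG, the core bound by TEAD factors. The Dppa1 window held 1 GATAA match, 68 bases before the start, and 23% of all windows held one. No other match lay in the 3 windows. ATGCAAAT was present in 1.61% and GGAATG in 12.6% of all windows. These matches describe letters only, and methylation and factor binding were not measured.

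Cells were grouped by clustering each library without the 8 genes and naming clusters from markers that do not include them. Unique molecular identifiers (UMIs), which count captured RNA molecules, were then summed over the cells of a class and scaled to counts for every 1000000 UMIs (CPM). The blastocyst library kept 1079 of 1288 barcodes (median 9278 UMIs) and gave 258 cells like epiblast (EPI-like), 446 like primitive endoderm (PrE-like) and 375 like trophectoderm (TE-like). The embryoid library kept 5328 of 5546 barcodes (median 4768.5 UMIs) and gave 106 EPI-like cells in 1 cluster and 3908 PrE-like cells in 6 clusters. A further 876 cells stayed unnamed (clusters 2 and 10). Another 438 cells lay in cluster 6, led by Slpi, Vim and Fbln2, and cluster 9, led by Col3a1, Hand1 and Col1a2. Cluster 9 (96 cells) had 13 of 14 fibroblast or extraembryonic mesoderm markers high and cluster 6 (342 cells) 6, so cluster 6 is referred to by number. High means at 20 CPM or more and at least 33.3% of the marker's highest level in any cluster. In the summed UMIs of both clusters, 11 of the 14 reached 20 CPM. Per the labels, 6000 cells went into each library. The names were checked against all markers of each class: the 19 trophectoderm markers summed to 10358 CPM in blastocyst TE-like cells and to at most 453 CPM in the other blastocyst classes, and the 18 epiblast markers to 6237 and 4407 CPM in blastocyst and embryoid EPI-like cells. The 18 endoderm markers summed to 22211 and 20310 CPM in blastocyst and embryoid PrE-like cells, to 2103 CPM in embryoid EPI-like cells against 1244 CPM in blastocyst EPI-like cells, and to 5600 CPM in embryoid clusters 6 and 9. The part of this endoderm signal in the levels below was not tested. Summed trophectoderm markers were at 1178 CPM in embryoid PrE-like cells, and no embryoid cluster was TE-like. The libraries shared 9 cell barcodes, 7 of them among kept cells. Intervals and limits below cover counting error only, and in a summed profile fewer positive cells and less RNA per cell cannot be told apart without the shares of cells given beside it. A gene with no row for a cell is read as 0 UMIs.

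Dppa1 RNA was almost entirely a trophectoderm transcript. In blastocyst TE-like cells it was at 1186 CPM (exact Poisson 95% interval 1151 to 1223, 4252 UMIs). In PrE-like cells 6 UMIs gave 1.46 CPM, and in EPI-like cells 3 UMIs gave 1.14 CPM. TE-like cells held 99.8% of the gene's UMIs and 34.7% of all UMIs of the library. Among cells thinned to 3000 UMIs each, 86.5% of TE-like, 1.08% of PrE-like and 0.424% of EPI-like cells had a Dppa1 UMI. Without thinning these shares were 93.3%, 1.35% and 1.16%, at median depths of 8610, 9398 and 9864.5 UMIs. In this library a transcript this abundant in 1 class thus had a UMI in about 1% of the cells of the others. That share is Dppa1's own and was measured in the blastocyst only.

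Khdc3, of the subcortical maternal complex, was present in TE-like and EPI-like cells and low in PrE-like cells. It was at 291 CPM in TE-like (274 to 310), 189 CPM in EPI-like (173 to 207) and 22.1 CPM in PrE-like cells (17.8 to 27.2), which is 13.2-fold lower in PrE-like than in TE-like and 8.56-fold lower than in EPI-like cells. After thinning, 51.6%, 36.0% and 5.39% of cells had a UMI, against 79.2%, 67.4% and 13.0% without thinning. The maternal effect gene Dppa3 was also lowest in PrE-like cells, with no order between the other classes. It was at 129.7 CPM in TE-like (118 to 142), 125 CPM in EPI-like (112 to 139) and 57.6 CPM in PrE-like cells (50.5 to 65.5), and the intervals of the TE-like and EPI-like levels overlap. Both maternal genes thus stood lowest in the PrE-like cells of the blastocyst. After thinning, 25.6% of TE-like, 29.2% of EPI-like and 12.9% of PrE-like cells had a Dppa3 UMI (42.1%, 55% and 31.6% before).

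Dppa5a and Fbxo15 were abundant in all blastocyst lineages, with no pair of lineages 2-fold apart. Dppa5a was at 2447 CPM in TE-like (2396 to 2499), 2321 CPM in EPI-like (2263 to 2380) and 1431 CPM in PrE-like cells (1394 to 1468). It was detected in 99.4%, 99.2% and 96.0% of these cells after thinning and in 100%, 99.2% and 98.7% before. Fbxo15, often used as a reporter of pluripotency, had its lowest class level in EPI-like cells, whose clusters 2 and 5 stood at 847 and 356 CPM. Its levels were 1009.5 CPM in TE-like (977 to 1043), 853 CPM in PrE-like (825 to 882) and 655 CPM in EPI-like cells (625 to 687), with 88.8%, 83.6% and 83.1% of cells positive after thinning and 97.9%, 93.7% and 96.1% before.

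Tdh, L1td1 and Dppa4 were highest in the epiblast-like cells. Tdh fell most steeply, from 467 CPM in EPI-like (441 to 494) to 32.3 CPM in PrE-like (27.1 to 38.3) and 1.67 CPM in TE-like cells (0.614 to 3.64, 6 UMIs). EPI-like cells held 89.9% of its UMIs, and 0.865% of TE-like cells had a Tdh UMI after thinning (1.33% before). For Dppa1 the shares were 0.424% of EPI-like and 1.08% of PrE-like cells after thinning (1.16% and 1.35% before). Dppa1 was more abundant in its main class than Tdh, so its shares are not a measured background for Tdh. No expression of Tdh in TE-like cells is read from so few UMIs. L1td1 was graded over the lineages, at 521 CPM in EPI-like (494 to 549), 303 CPM in PrE-like (287 to 321) and 166 CPM in TE-like cells (153 to 180). Dppa4 followed the same order, at 195 CPM in EPI-like (179 to 213), 75.1 CPM in PrE-like (67.0 to 84.0) and 33.2 CPM in TE-like cells (27.5 to 39.7). Neighbouring levels of these 3 genes did not overlap in their counting intervals.

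**Figure D1:**
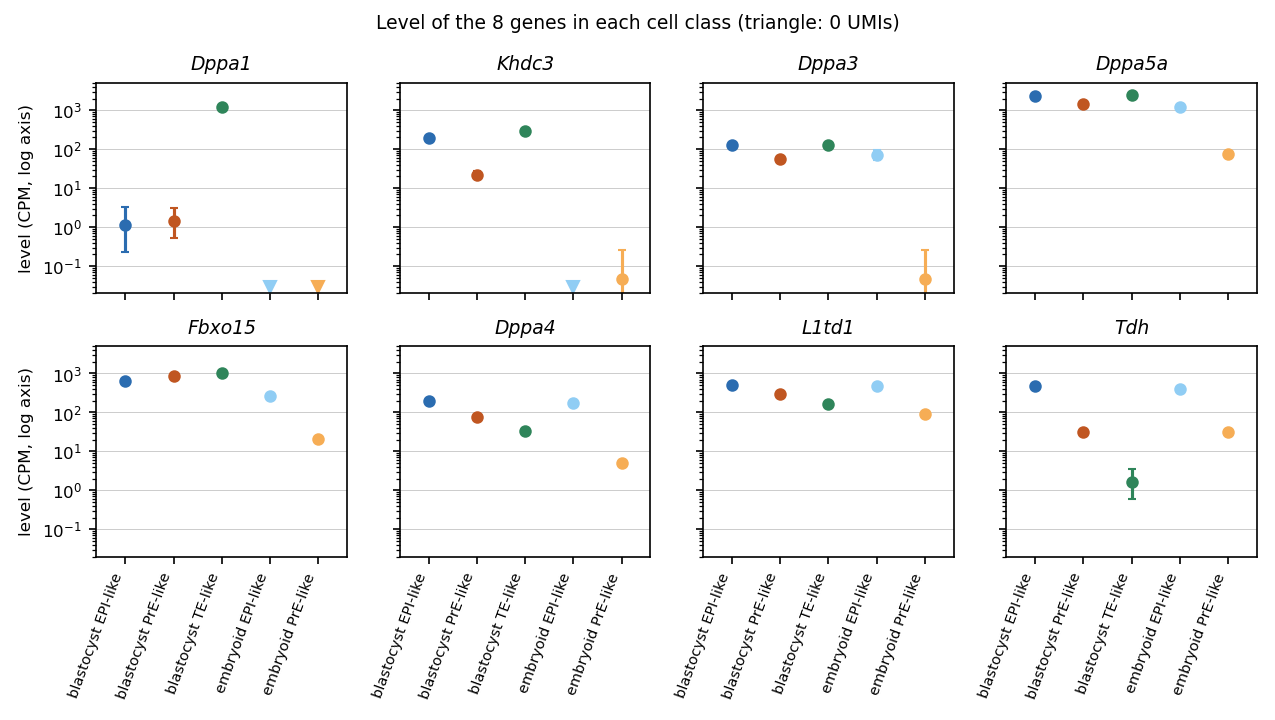
Level of each of the 8 genes in CPM (log axis) in 3 blastocyst and 2 embryoid cell classes; points are levels of UMIs summed over cells, bars exact Poisson 95% intervals, and triangles classes with 0 UMIs. Dppa1 is at 1186 CPM in blastocyst TE-like cells and at most 1.46 CPM elsewhere, and the embryoid PrE-like point is far below the blastocyst PrE-like point for Dppa3, Dppa4, Dppa5a, Fbxo15 and Khdc3 and next to it for Tdh.

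The 8 genes were also counted as a list, with the share of all genes beside each count. With 8 genes, counts close to those shares are not read as a result about the list. A gene was compared where it reached 10 CPM in at least 1 of the 2 profiles, and it was called apart at a 2-fold ratio after 1 CPM was added to each level. A gene that reached 10 CPM in only 1 profile could be called in 1 direction only. Members were chosen with earlier results of these data known, so the counts are descriptions. In TE-like over EPI-like cells, 1 of 8 members was higher (Dppa1; log2 ratio 9.12, interval of the counts 8.48 to 12.31), against 15.2% of all genes compared. In the other direction 3 were lower (Tdh -7.45, -9.57 to -7.00; Dppa4 -2.52, -2.85 to -2.26; L1td1 -1.64, -1.79 to -1.51), against 23.9% of all genes. The median over all genes was -0.31 in this comparison and -0.38 in TE-like over PrE-like cells, so ratios near those values are not set apart from the rest.

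In PrE-like over EPI-like cells, 0 of 7 members that passed the level filter were higher, against 14.2% of all genes, and 4 were lower, against 10.9%. The 4 were Tdh (-3.81), Khdc3 (-3.04), Dppa4 (-1.37) and Dppa3 (-1.10). Dppa3 lies close to the 2-fold line and was no longer called with 10 CPM added. In TE-like over PrE-like cells, 3 of 8 were higher (Dppa1 8.92, Khdc3 3.66, Dppa3 1.16), against 11.7% of all genes, and 2 lower (Tdh -3.64, Dppa4 -1.15), against 21.8%. With median-of-ratios scaling that comparison gave 4 higher and 1 lower, as Dppa5a passed the line and Dppa4 no longer did.

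Levels also differed between clusters of 1 lineage. Of the 3 TE-like clusters, cluster 6 (45 cells, led by Cald1, Irx3 and Ier5, with Elf5 and Krt19 among its leading genes) stood apart. Dppa1 was at 204 CPM there, 1232 CPM in cluster 1 (238 cells) and 1693 CPM in cluster 4 (92 cells), so that 37.5% of its thinned cells were positive against 90.9% and 97.7% (57.8%, 97.5% and 100% without thinning). Dppa3 was at 7.61 CPM in cluster 6 (4 UMIs), 40.5 CPM in cluster 4 and 191 CPM in cluster 1, led by Serpinb6b, Perp and H19. Khdc3 was at 85.6, 250.1 and 354 CPM in the same order of clusters, and L1td1 at 36.2, 174 and 194 CPM. Dppa4 went another way, with 6.13 CPM in cluster 4 (5 UMIs) and 34.3 CPM in cluster 6 against 42.8 CPM in cluster 1. Its interval of the ratio of clusters 1 and 6 included no difference (log2 -0.41 to 1.14).

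Both EPI-like clusters held the genes, with a shift in Fbxo15. It was at 847 CPM in cluster 2 (178 cells, led by Prdm14, Ifitm1 and Nanog) and at 356 CPM in cluster 5 (80 cells, led by Lef1 and Igfbp2, with Otx2 among its leading genes), a 2.38-fold difference. L1td1 went the other way, at 439 and 649 CPM. Dppa4 and Tdh were at 192 and 199 CPM and at 459 and 479 CPM, with intervals of their ratios that include no difference. The rest of the members that reached 10 CPM lay between these, with ratios of cluster 2 over cluster 5 from 1.14-fold (Dppa5a) to 1.34-fold (Dppa3).

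The PrE-like clusters of the blastocyst differed in the same gene. Cluster 0 (299 cells, led by Fam159b, Sox17 and Fgf10) had Fbxo15 at 1017 CPM, and cluster 3 (147 cells, led by Tfec, Spink3 and Cited1, with the absorptive endoderm gene Cubn among its leading genes) at 496 CPM. Khdc3 was at 29.5 and 6.17 CPM, and Dppa3 at 68.9 and 33.2 CPM. Tdh was the exception, at 26.6 CPM in cluster 0 and 44.8 CPM in cluster 3 (1.68-fold). In each lineage the cluster with the lowest Fbxo15 also had the lowest median share of mitochondrial UMIs: 7.98% in TE-like cluster 6 against 12.3% and 11.8%, 8.60% in EPI-like cluster 5 against 10.5%, and 6.67% in PrE-like cluster 3 against 10.2%. The part of that share in the Fbxo15 levels was not tested.

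**Figure D2:**
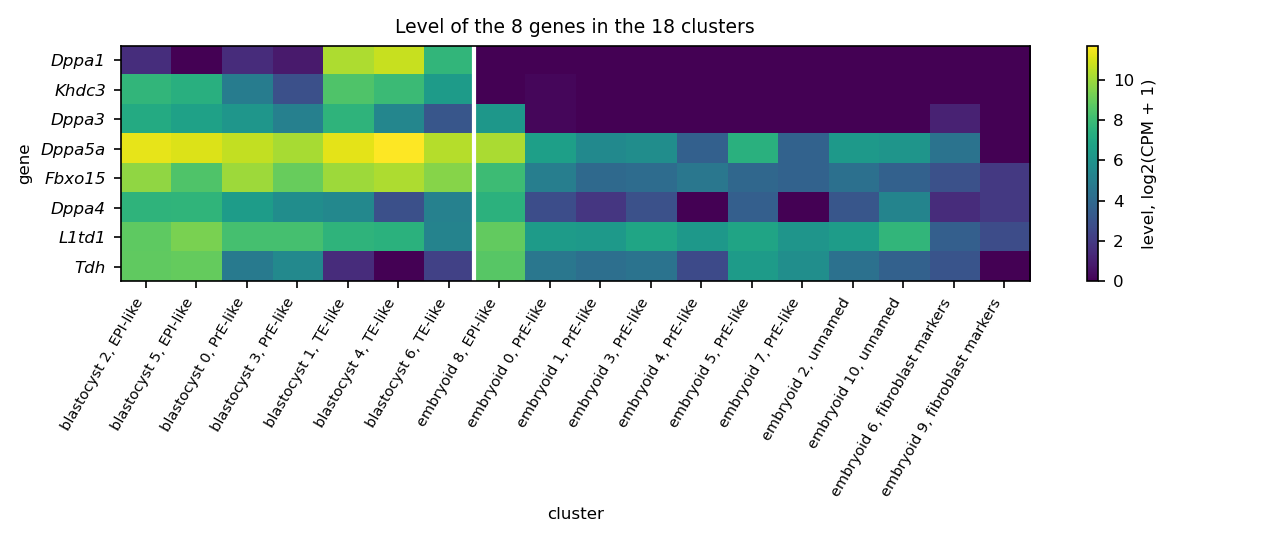
Level of each of the 8 genes, as log2(CPM + 1), in the 7 blastocyst clusters (left of the white line) and the 11 embryoid clusters. Dppa1 is bright in the 3 TE-like columns only, Khdc3 is dark in all embryoid columns, and in the embryoid the EPI-like column (cluster 8) is brighter than every other for Dppa3, Dppa5a, Fbxo15, Dppa4, L1td1 and Tdh.

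Several of the genes varied more from cell to cell than most genes with a mean of at least 0.1 UMIs in their class. In cells thinned to 3000 UMIs, the variance over the mean was 2.45 for Dppa5a, 2.22 for Dppa1, 1.74 for Fbxo15 and 1.70 for Dppa3 in TE-like cells, against a median of 1.09 over 4418 genes with a mean of at least 0.1 UMIs. The means of these genes were 7.53, 3.61, 2.92 and 0.392 UMIs, and no genes of similar mean were set beside them. The class also pools clusters that differ in level. The parts of mean level and of cluster in these values were not tested. The tenth of TE-like cells richest in Dppa3 held 60.3% of its UMIs. In PrE-like cells Fbxo15 stood at 2.09 against a median of 1.06, and in EPI-like cells Khdc3 at 1.54 and Fbxo15 at 1.52 against 1.05. These values depend on depth: in cells thinned to 1500 UMIs, Dppa5a was at 1.56 in TE-like cells, Fbxo15 at 1.31 in PrE-like cells and Khdc3 at 1.10 in EPI-like cells, against medians of 1.07, 1.05 and 1.04. Tdh in EPI-like cells was at 0.98 at the greater depth and at 1.09 at the lower one, below the median of its class at one and above it at the other. Dppa1 and Dppa5a had a Spearman correlation of 0.42 over 347 thinned TE-like cells, which share a library and the cluster differences above. The other 14 pairs compared in TE-like cells lay between -0.08 and 0.17.

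Most blastocyst cells carried several of the 8 genes. At 3000 UMIs a cell, the median EPI-like and TE-like cell had UMIs of 4 of the genes and the median PrE-like cell of 3. Of 236 EPI-like cells, 48.7% had 5 or more, as did 31.1% of 347 TE-like and 4.58% of 371 PrE-like cells. Embryoid EPI-like cells had a median of 4, with 20.2% of 99 cells at 5 or more. Embryoid PrE-like cells had a median of 0, and 56.0% of 3213 cells had none.

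Embryoid EPI-like cells were close to blastocyst EPI-like cells in the 3 genes highest in epiblast. Tdh was at 403 CPM (357 to 453) against 467, L1td1 at 467 CPM (418 to 520) against 521, and Dppa4 at 179 CPM (149 to 214) against 195 CPM. The counting intervals of the embryoid and blastocyst levels overlap for each of them. The intervals of the log2 ratios of counts ran from -0.40 to -0.03 for Tdh, which leaves out 0, and from -0.34 to 0.02 for L1td1 and -0.41 to 0.16 for Dppa4, which include it. After thinning, 60.6% of 99 embryoid and 76.3% of 236 blastocyst EPI-like cells had a Tdh UMI (81.1% and 93.4% before). For L1td1 the shares were 72.7% and 76.3% (92.5% and 93% before), and for Dppa4 48.5% and 40.3% (61.3% and 73.3% before).

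Khdc3 and Fbxo15 were lower in embryoid than in blastocyst EPI-like cells. Khdc3 had 0 UMIs in 106 cells, against 189 CPM (500 UMIs) in blastocyst EPI-like cells, and was at least 44.4-fold lower against a floor of 3 UMIs over the summed profile. A count of 0 in 106 cells allows a share of cells with a UMI of up to 2.83% by a limit of 3 counts, or 3.42% by the exact binomial 95% interval. Fbxo15 was at 261 CPM (224 to 301) against 655, or 2.51-fold lower. Dppa5a was at 1180.3 CPM (1101 to 1263) against 2321, or 1.97-fold lower and just inside the 2-fold line, and Dppa3 at 71.2 CPM (52.8 to 93.9) against 125, or 1.76-fold lower. Dppa1 had 0 UMIs against 3, which gives no difference at this depth. Of the 7 members that passed the filter, 2 were thus called lower (Khdc3, Fbxo15), against 10.3% of all genes, and 0 higher, against 14.3%. When CPM were taken in each cell and averaged, Dppa3 and Dppa5a also passed the line and 4 were lower.

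**Figure D3:**
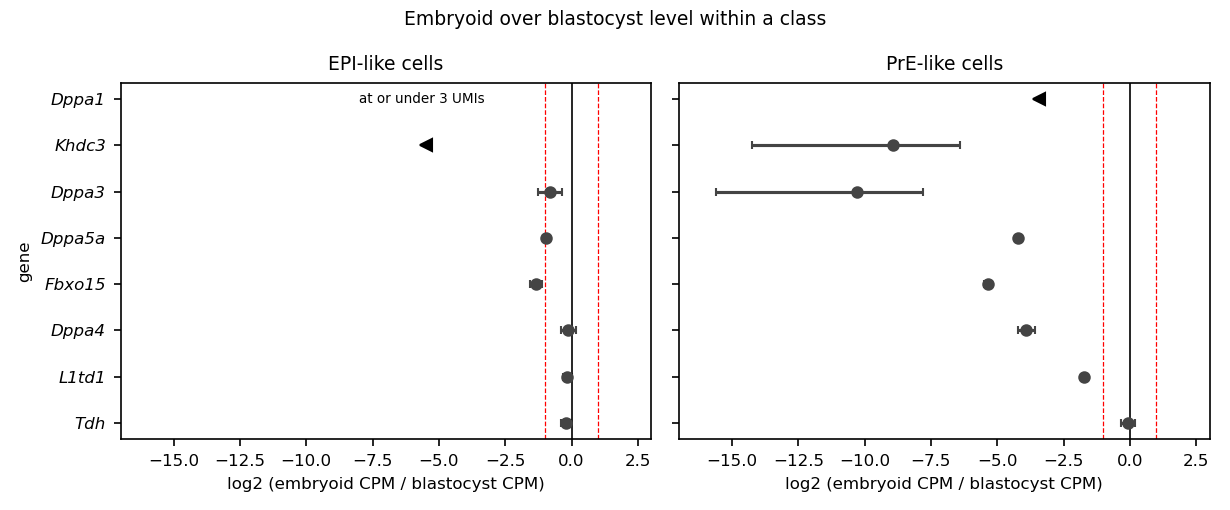
Log2 ratio of the embryoid over the blastocyst level of each gene in EPI-like (left) and PrE-like cells (right), with no CPM added; bars are exact 95% intervals of the ratio of counts, arrowheads are bounds where the embryoid has 0 UMIs, dashed lines mark 2-fold. In EPI-like cells the ratios except that of Khdc3 lie between -1.33 and 0 on the log2 scale, while in PrE-like cells only Tdh lies inside the dashed lines.

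Embryoid PrE-like cells held far less of most of these transcripts than blastocyst PrE-like cells. Dppa3 had 1 UMI in 21880951 (0.0457 CPM) against 57.6 CPM, and Khdc3 1 UMI against 22.1 CPM. The log2 ratios of these counts ran from -15.61 to -7.81 and from -14.24 to -6.40. Fbxo15 was at 20.8 CPM (18.9 to 22.8) against 853, or 41.0-fold lower. Dppa5a was at 76.8 CPM (73.2 to 80.5) against 1431, or 18.6-fold lower, and Dppa4 at 5.03 CPM (4.13 to 6.06) against 75.1, or 14.9-fold lower. L1td1 had the smallest gap of those called, at 90.3 CPM (86.4 to 94.4) against 303, or 3.36-fold lower.

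Tdh did not follow the others. It was at 30.8 CPM (28.5 to 33.2) in embryoid and 32.3 CPM (27.1 to 38.3) in blastocyst PrE-like cells, and the interval of the log2 ratio, -0.34 to 0.21, includes no difference. Thinned, 7.0% of embryoid and 7.55% of blastocyst PrE-like cells had a Tdh UMI (13.1% and 22.2% without thinning, at median depths of 4972 and 9398 UMIs). In all, 6 of 7 members were lower in embryoid PrE-like cells, against 12.0% of all genes, and 0 of 7 higher, against 17.8%. The median log2 ratio of the 7 was -4.20, against 0.06 for all genes. Dppa3, Khdc3 and Dppa4 passed the level filter only through the blastocyst class, so they could not be called higher. Members were chosen with earlier results of these data known.

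Within the embryoid library, all 6 members that passed the level filter were lower in PrE-like than in EPI-like cells. That is 6 of 6, against 13.5% of all genes, with 0 higher, against 21.1%. Dppa3 and Dppa4 passed only through the EPI-like class, so they could not be called higher. Members were chosen with earlier results of these data known, and the counts are descriptions. The gaps ran from 5.17-fold for L1td1, through 12.5-fold for Fbxo15, 13.1-fold for Tdh, 15.4-fold for Dppa5a and 35.7-fold for Dppa4, to 0.0457 CPM (1 UMI) against 71.2 CPM for Dppa3. Since both classes come from 1 library, differences between libraries do not enter here. The embryoid was made from ES cells and XTE cells, which differed in line and in prior culture. The line of origin of each class was not determined. Differences of line or culture thus cannot be told apart from differences of lineage. The comparison shares the embryoid PrE-like cells with the one above. The proportions of the genes also differed between these classes: Dppa3 gave 2.78% of the UMIs of the 8 genes in EPI-like and 0.0204% in PrE-like cells, while L1td1 gave 18.2% and 40.4%.

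Set against blastocyst TE-like cells, embryoid PrE-like cells had few or no UMIs of Dppa1, Khdc3 and Dppa3. Dppa1 had 0 UMIs, at least 8653-fold lower than 1186 CPM. Khdc3 and Dppa3 had 1 UMI each against 291 and 129.7 CPM. Fbxo15 was 48.5-fold lower, Dppa5a 31.9-fold lower and Dppa4 6.60-fold lower. L1td1, at 90.3 against 166 CPM, stayed within 2-fold (1.84-fold lower), and it passed the line with median-of-ratios scaling. Tdh was at 30.8 CPM against 1.67 CPM, a level that rests on 6 UMIs in 5 TE-like cells. The interval of the log2 ratio of its counts was accordingly wide, from 3.07 to 5.65. Of 8 members 6 were lower, against 12.7% of all genes, and 1 higher (Tdh), against 30.7%. Dppa1, Khdc3, Dppa3 and Dppa4 passed the filter only through the TE-like class, and Tdh only through the PrE-like class. Each of these could be called in 1 direction only.

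**Figure D4:**
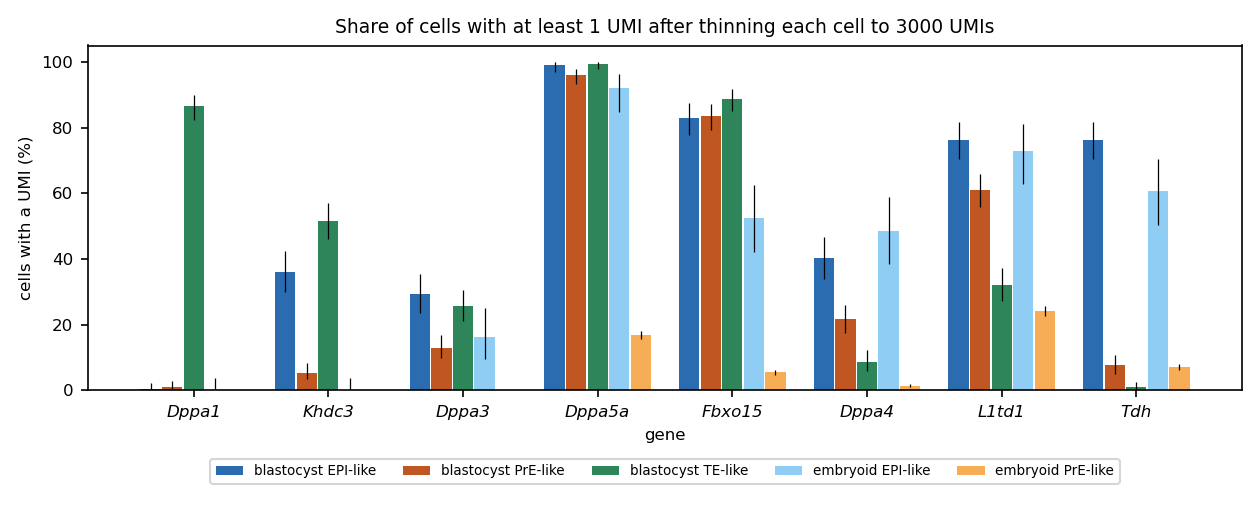
Percent of cells with at least 1 UMI of each gene after every cell was thinned to 3000 UMIs, in 5 cell classes; bars start at 0 and lines are exact binomial 95% intervals. Embryoid EPI-like cells reach 60.6% for Tdh and 0% for Khdc3, and embryoid PrE-like cells reach 24.1% for L1td1 and 16.7% for Dppa5a.

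The remaining transcripts were unevenly spread over the embryoid PrE-like clusters. Cluster 5 (436 cells, led by Cubn, Apoc2 and Apoa1, genes of absorptive endoderm) had the highest Tdh at 83.9 CPM (74.5 to 94.2), the highest Dppa5a at 169.6 CPM (156 to 184) and the highest Dppa4 at 10.6 CPM (7.40 to 14.6). Cluster 7 (197 cells, led by Nepn, Rbp4 and Apob) had Tdh at 53.2 CPM but Dppa5a at 11.7 CPM and no Dppa4 UMI. Cluster 4 (551 cells, led by Ctgf, F3 and Gkn2) was lowest, with Tdh at 5.12 CPM (2.64 to 8.94), Dppa5a at 11.1 CPM (7.24 to 16.2) and no Dppa4 UMI. Tdh was thus higher in the Cubn-rich cluster of PrE-like cells in both libraries, in the embryoid against each of the other 5 clusters and in the blastocyst against the other one.

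Of the 5 genes above 1 UMI in embryoid PrE-like cells, L1td1 was the most even, from 67.0 CPM in cluster 7 to 114.8 CPM in cluster 3 over all 6 PrE-like clusters. Fbxo15 was highest at 30.5 CPM in cluster 0, which is led in part by cell division genes such as Ccnb1 and Top2a. The single UMIs of Dppa3 and Khdc3 in embryoid PrE-like cells also lay in cluster 0. Unnamed cluster 2 (797 cells) resembled the PrE-like clusters, with L1td1 at 88.4 CPM, Dppa5a at 77.5 CPM and Tdh at 19.2 CPM.

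Summed over the 8 genes, embryoid clusters 6 and 9 held the least, at 48.3 and 11.2 CPM. PrE-like cluster 4 was next, at 113 CPM. It had less Dppa5a (11.1 CPM) and Tdh (5.12 CPM) than cluster 6, but more L1td1 (73.3 CPM) and Fbxo15 (23.9 CPM). Cluster 9 had 4 UMIs of the 8 genes together in 96 cells and none of Dppa5a or Tdh. In cluster 6 (342 cells) Dppa5a was at 20.9 CPM, L1td1 at 10.7 CPM, Tdh at 7.16 CPM, Fbxo15 at 6.57 CPM and Dppa3 at 1.19 CPM (2 UMIs). Unnamed cluster 10 (79 cells), whose median mitochondrial share was 0.187% against 6.54% in the library, had the highest L1td1 of the embryoid clusters outside EPI-like cells, 208 CPM (157 to 271, 55 UMIs), and Dppa4 at 37.8 CPM (10 UMIs). The part of its unusual RNA content in these levels was not tested.

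Some UMIs of these genes may be counted at near copies, because the annotation holds genes that share stretches of 50 bases with them. For Dppa5a these include Gm6083, Gm6798, Gm15310 and the coding gene Pigp, each with 11.6% to 13.0% of the 50-base words of Dppa5a, and how reads that fit several genes were counted is not stated. The copies under Gm symbols together had 3.35, 3.25 and 3.19 UMIs for every 100 of Dppa5a in blastocyst EPI-like, PrE-like and TE-like cells, and 2.90 and 3.27 in embryoid EPI-like and PrE-like cells. That proportion was nearly the same in all 5 classes while Dppa5a itself ranged from 76.8 to 2447 CPM. Pigp, which encodes a subunit of the enzyme that starts GPI anchor synthesis, had 28.0, 27.0 and 25.4 UMIs for every 100 of Dppa5a in the blastocyst classes and 2.77 in embryoid EPI-like cells. Its level there was 32.7 CPM, against 651 CPM in blastocyst EPI-like cells. Khdc3 shares 34.1% of its words and its strand with the overlapping gene Gm20509, which neither library lists. Tdh overlaps the antisense gene Gm17232, also listed in neither, and whether counting used strand is not stated. Dppa4 copies had at most 2 UMIs in a class, and no annotated gene shared 50 bases with Fbxo15.

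Genes with the most similar pattern were taken over all 18 cluster profiles, by the Pearson correlation of log2(CPM + 1) among 7068 genes that reached 50 CPM in a cluster. The profiles share libraries and depth, and the values are descriptions. A correlation does not measure the size of a change, so a gene with a much narrower range can rank high. For Dppa1 they were Alppl2 (r 0.99), Prss32 and Epn3, which stood at 65.3, 56.6 and 46.9 CPM in TE-like cells and at most 0.486 CPM in any other of the 5 classes. For Khdc3 they were Calcoco2 (0.97), Crxos1 and Ubb. Ubb had a far narrower range than Khdc3, with 508 CPM in blastocyst and 255 CPM in embryoid EPI-like cells. Calcoco2, an autophagy receptor, was at 821, 199 and 80.2 CPM in TE-like, EPI-like and PrE-like blastocyst cells, 7.12 CPM in embryoid EPI-like cells and 0 UMIs in embryoid PrE-like cells. Crxos1, a homeobox gene, followed at 1058, 80.7, 56.9, 1.42 and 0 CPM. For Dppa3 they were 2410141K09Rik (0.97), Dnmt3l and Arl14epl, and for L1td1 Plekhf2 (0.91), Klf9 and Tmem8.

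Dppa4 was most like Dppa2 (0.95), its binding partner and its neighbour on the chromosome, followed by Gstp2 and 2610305D13Rik. Dppa2 was at 90.6, 46.4 and 43.0 CPM in blastocyst EPI-like, PrE-like and TE-like cells and at 48.4 and 3.02 CPM in embryoid EPI-like and PrE-like cells. RefSeq places Dppa4 at chr16:48283735-48294292 and Dppa2 downstream of it, 15981 bases away with no annotated gene between. Tdh was most like Plaa (0.93), Phf11d and Gcat (0.89), the enzyme that takes the product of threonine dehydrogenase on to glycine. Plaa was at 164 CPM in blastocyst EPI-like and 82.9 CPM in TE-like cells, a much smaller gap than that of Tdh. Dppa5a was most like Mthfd1 (0.96), Rpl39l and Uqcrc1. Fbxo15 was most like Uqcrc1 (0.97), Gm6083 and Cox7c, of which Gm6083 is the Dppa5a copy named above. Uqcrc1 was at 180 CPM in blastocyst TE-like and 85.5 CPM in embryoid PrE-like cells, and Cox7c at 651 and 244 CPM. Fbxo15 was at 1009.5 and 20.8 CPM there, a far larger gap.

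The subcortical maternal complex and other maternal effect genes, of which Khdc3 is one, were mostly too low to compare: 12 of 13 listed genes matched and 4 reached 20 CPM in a class. Ooep, which lies 8703 bases from Dppa5a on chromosome 9 with no annotated gene between, was at 377 CPM in EPI-like, 175 CPM in PrE-like and 75.9 CPM in TE-like blastocyst cells, an order that Khdc3 did not have. In the embryoid it was at 78.3 CPM in EPI-like and 1.42 CPM in PrE-like cells. Khdc1a was at 33.5 CPM in TE-like cells and at most 1.46 CPM in other classes, and Nlrp4f at 31.1 and 27.1 CPM in blastocyst and embryoid EPI-like cells and at most 1.12 CPM in the rest. Zbed3 was at 23.3 CPM in embryoid PrE-like against 13.9 CPM in blastocyst PrE-like cells. In embryoid over blastocyst EPI-like cells 1 of 3 listed genes past the filter was lower (Ooep), against 10.3% of all genes, and 0 higher, against 14.3%. In PrE-like cells 1 of 2 was lower (Ooep), against 12.0% of all genes, and 0 higher, against 17.8%. With so few genes these counts say little of the list.

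Genes of threonine, glycine cleavage and one-carbon metabolism, the setting of Tdh, were compared in the same way. Of 16 listed genes past the filter, 8 were lower in TE-like over EPI-like cells, against 23.9% of all genes, and 0 higher, against 15.2% (median log2 ratio -1.10, all genes -0.31). In PrE-like over EPI-like cells 1 was lower (Gldc), against 10.9% of all genes, and 0 higher, against 14.2% (median -0.19, all genes 0.03). Gldc, of the glycine cleavage system, was at 266 CPM in EPI-like, 114 CPM in PrE-like and 104 CPM in TE-like cells, and at 295 and 158 CPM in embryoid EPI-like and PrE-like cells. Gcat was at 64.8, 45.0 and 12.8 CPM in the same blastocyst classes and at 76.9 and 39.9 CPM in the embryoid. Mat2a, which makes the methyl donor S-adenosylmethionine, was at 408 and 527 CPM in blastocyst and embryoid EPI-like cells, Gcsh at 250.1 and 313 CPM, and the purine synthesis enzyme Atic at 225 and 201 CPM. In embryoid over blastocyst EPI-like cells 1 of 16 was lower (Gart), against 10.3% of all genes, and 0 higher, against 14.3% (median 0.02, all genes 0.05). In PrE-like cells, where Tdh itself stood at -0.07, 6 were lower, against 12.0% of all genes, and 0 higher, against 17.8% (median -0.66, all genes 0.06).

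Known partners of the 8 proteins were also measured. The list has 17 genes, 16 matched, and it includes Sox2 and Pou5f1, which also named the EPI-like class. Skp1a, a subunit of the ubiquitin ligases that F-box proteins such as Fbxo15 join, was at 800.2, 706 and 794 CPM in blastocyst EPI-like, PrE-like and TE-like cells and at 790.2 and 593 CPM in embryoid EPI-like and PrE-like cells. Trim28, a corepressor, was at 1064, 452 and 275 CPM and at 987 and 304 CPM, and Tet1, which oxidises methylated cytosine, at 418, 86.1 and 13.4 CPM and at 222 and 34.9 CPM. Sox2 was at 667, 20.9 and 2.79 CPM and at 523 and 0.868 CPM. In embryoid over blastocyst PrE-like cells 6 of 15 past the filter were lower, against 12.0% of all genes, and 1 higher, against 17.8% (median -0.57). In EPI-like cells 1 of 16 was lower, against 10.3%, and 2 higher, against 14.3% (median -0.17), shares near those of all genes.

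**Figure D5:**
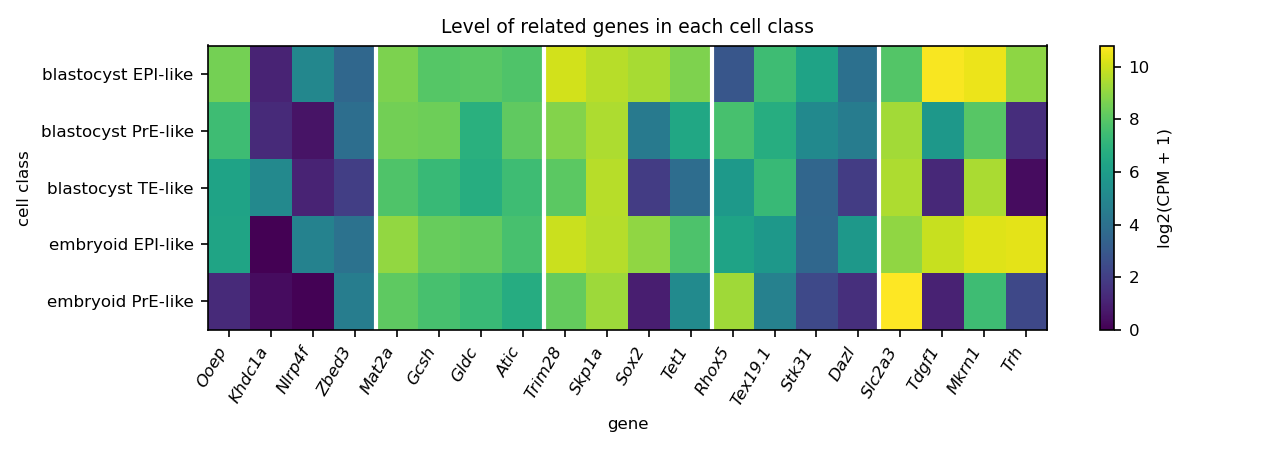
Level, as log2(CPM + 1), of the named genes of 5 lists of related genes in 5 cell classes; white lines separate the lists (maternal effect, one-carbon metabolism, partners, germline, further early embryo genes). Ooep is bright in the blastocyst rows and dark in the embryoid PrE-like row, where Rhox5 and Slc2a3 are brighter than in the other rows.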

How the data were processed

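The authors deposited 1 table of unnormalized UMI counts per gene symbol and cell barcode for each library, made with the BD Rhapsody whole transcriptome kit per the labels' protocols. Per the submitters' processing notes, the tools were STAR 2.7.1a, featureCounts 1.6.4, UMI-tools 1.0.1 and bcl2fastq 2.19.1.403, with genome build mm10. Annotation, strand setting and barcode calling: not given in the sources used here.

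Members and gene lists were chosen with earlier results of these data known. Cells with at least 1000 UMIs, 500 genes and at most 25% mitochondrial UMIs were kept. Scrublet (Scanpy 1.11.5) called 18 doublets in the blastocyst, which were removed. It called 0 in the embryoid, where it is taken not to have worked, so that doublets may remain there. Each library was clustered without the 8 genes, the related lists, and mitochondrial and ribosomal protein genes. Settings were 2000 variable genes, 30 components and 20 neighbours (scikit-learn 1.9.0), and Leiden resolution 1.0 (leidenalg 0.10.2). A cluster was named from at least 3 markers at 20 CPM or more and at least 33.3% of their highest level in any cluster. It stayed unnamed if its 10 leading genes held more markers of another class. Limits on mitochondrial share and depth were also set. UMIs were summed by class, and log2 ratios used 1 added CPM. Intervals (95%) are exact Poisson for levels, conditional binomial for ratios and Clopper-Pearson for shares (Python 3.11.15, scipy 1.17.1), and 0 counts were set to a floor of 3 UMIs per profile. Spread was compared with all genes of at least 0.1 UMIs per thinned cell in place of genes of similar mean. The text names all 8 genes, the 3 genes most like each, and up to 4 of the most abundant genes of each list at 20 CPM or more. Near copies were found by shared 50-base words in GENCODE vM21 transcripts. Ratios and intervals were tested on simulated counts. Alternatives covered filters, clustering, scaling, added CPM and thinning depth. With 1 library per condition no test between conditions was possible.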

Additional observations from a re-analysis of the deposited data

Results flagged for a closer look

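In the summed classes, Fbxo15 had opposite orders in the libraries. Its log2 ratio of PrE-like over EPI-like cells was 0.38 in the blastocyst (853 against 655 CPM) and -3.59 in the embryoid (20.8 against 261 CPM). This was picked out because the same contrast has opposite signs in the 2 libraries. The blastocyst difference was 1.30-fold, inside the 2-fold line. Its clusters overlapped, with EPI-like clusters 2 and 5 at 847 and 356 CPM and PrE-like clusters 0 and 3 at 1017 and 496 CPM. With 1 library each, the difference between the libraries was not tested.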

How the results depend on the processing

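Over 11 other settings of each of the 7 comparisons, 76 of 77 counts of members at least 2-fold apart stayed within 1.5 times the main count. The exception was embryoid over blastocyst EPI-like cells with the mean of per-cell CPM, where 4 members passed in place of 2, and the cause was not tested. Single values were less stable, with moves beyond counting error in 150 of 616 log2 ratios and 60 of 360 levels. Shares of cells with a UMI, which depend on the depth of thinning by construction, moved in 44 of 48 blastocyst and 21 of 32 embryoid cases. No log2 ratio that passed the 2-fold line changed sign. The ratios of Dppa3 and Dppa5a in TE-like over EPI-like cells lie near 0 and took values from -0.36 to 0.36 and from -0.01 to 0.39, so no direction is read from them. Keeping cells with at most 10% mitochondrial UMIs turned TE-like over PrE-like cells to 2 higher and 3 lower. Embryoid PrE-like cells made up 62.6% to 97.7% of the library and blastocyst TE-like cells 21.8% to 35.6% over the settings. With cells assigned singly by marker scores, 24 embryoid cells (0.450%) were TE-like. With at least 2000 UMIs per barcode or 15 components, a group of 314 or 346 embryoid cells took the mesoderm name. With 10 CPM added, the share of all genes at least 2-fold apart fell in embryoid over blastocyst PrE-like cells from 29.8% to 19.7%. Depth limits the embryoid EPI-like class, where 106 cells and 702358 UMIs put the floor at 4.27 CPM. No paired analysis was possible because each condition is 1 library.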

Other observations

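Germline genes that are known to be silenced by DNA methylation did not go one way between the EPI-like classes. Of 8 listed genes past the filter, 3 were higher (Dazl, Ddx4, Rhox5) and 3 lower (Tex19.1, Stk31, Piwil2) in embryoid over blastocyst EPI-like cells, with a median log2 ratio of -0.03. Of all genes 14.3% were higher and 10.3% lower. Dazl, an RNA-binding protein of germ cells, was at 54.1 against 14.8 CPM, and Rhox5, an X-linked homeobox gene, at 76.9 against 6.44 CPM. Tex19.1 was at 54.1 against 173 CPM and Stk31 at 11.4 against 76.5 CPM. In PrE-like cells Rhox5 was at 612 CPM in the embryoid and 204 CPM in the blastocyst, while Tex19.1 was at 25.7 and 106 CPM. There 2 of 8 were higher, against 17.8% of all genes, and 6 lower, against 12.0% (median -2.10, all genes 0.06).

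A further list of 31 early embryo and ES cell genes, some of them also naming markers or on the lists above, had 19 of 27 lower in embryoid over blastocyst PrE-like cells, against 12.0% of all genes, and 4 higher (Trap1a, Rhox6, Rhox9, Slc2a3), against 17.8%. In EPI-like cells 12 of 29 were lower, against 10.3%, and 4 higher (Zfp42, Rhox6, Slc2a3, Trh), against 14.3%. The counts of higher genes are no larger than the shares of all genes. Slc2a3, a glucose transporter, was at 1797 against 631 CPM in PrE-like cells, and Mkrn1 at 173 against 256 CPM. Trh was at 1314 against 499.8 CPM in EPI-like cells, and Tdgf1, a naming marker, at 971 against 1688 CPM.

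Oocyte and 2-cell stage genes were low, with Zp1 as an exception in the embryoid. Of 16 and 20 listed genes, 10 and 10 matched, none passed the filter in any of the 7 comparisons, and their highest class levels were 9.97 and 0.837 CPM. The 9.97 CPM belong to Zp1, a gene of the egg coat, in unnamed embryoid cells, and Zp1 was at 7.91 CPM (173 UMIs) in embryoid PrE-like cells and at 0 in the blastocyst classes. Its floor of 3 UMIs in embryoid PrE-like cells is 0.137 CPM. It was chosen after its values were seen. The oocyte or cumulus markers, 9 of 10 matched, summed to 86.5 CPM in embryoid clusters 6 and 9, with 1 of them at 20 CPM or more (Has2, a hyaluronan synthase also made by other cells), and to at most 15.7 CPM in the other classes.

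Pigp shares 50-base words with Dppa5a and kept nearly 1 proportion to it within the blastocyst, 25.4 to 28.0 UMIs for every 100 of Dppa5a. In the embryoid that number was 2.77 in EPI-like and 75.9 in PrE-like cells. How many Pigp UMIs come from Dppa5a or its copies was not tested.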
